A study of Rattus norvegicus with 16 samples.

Results

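The nuclear-encoded genes of respiratory complexes II to V were followed in rat soleus, a postural muscle made mostly of slow fibres. The genes were those whose symbol is Sdha, Sdhb, Sdhc, Sdhd, Cyc1, Cycs, Cox5a, Cox5b, Cox6b1, Cox6c, Cox7b, Cox7c, Cox7a2l, Cox10, Cox11, Cox15 or Cox17, or starts with Uqcr or Atp5. One value per gene was used, that of the probe set with the highest mean over 16 arrays. This gave 39 of the 14217 genes that a single-symbol probe set names: 4 of complex II, 8 of complex III, 11 of complex IV and 16 of complex V. Another 6 probe sets carry a symbol of the rule beside others, among them Cycs, Uqcrb, Atp5mc1 and Atp5mc2, and were not used here.

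Female rats of generation 16 came from an outbred N:NIH founder stock bred in opposite directions on treadmill running tested at 11 weeks of age. Rats named HCR descend from the best runners of each generation and rats named LCR from the poorest. The groups were HCR trained, HCR sedentary, LCR trained and LCR sedentary, with 4 rats in each and 1 array for every rat. Trained rats ran uphill intervals on 5 days per week for 8 weeks, sedentary rats of the same age had neither training nor oxygen uptake tests, and tissue was taken near 7 months of age, 48 hours after training ended. Because the lines differ over their whole selected genomes, a line difference is not that of 1 locus. The design asks how training acts in each line, how the lines differ in each training state, and whether the training responses differ.

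Electrons enter the respiratory chain at complexes I and II, pass through complex III and cytochrome c to complex IV, and are handed to oxygen. Complexes III and IV pump protons across the inner mitochondrial membrane, and complex V, the ATP synthase, uses their return flow to make ATP. Complex II is also the succinate dehydrogenase of the citric acid cycle and pumps none. Endurance exercise is known to increase the mitochondrial content of skeletal muscle, in rats as in humans, and the nuclear genes of the chain are known targets of NRF1, of GABP (also called NRF2), of the estrogen-related receptors (ERR) and of YY1.

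Promoter windows were found for 34 of the 39 genes in RefSeq on build GRCr8, each of 300 bases, mostly upstream of the start of the gene. Motif searches on both strands used GCGCA and GCGC with any 1 base between them for NRF1, AAGGTCA for the ERR half-site, CCGGAAG for GABP and AAGATGG for YY1. The NRF1 motif was present in 8 of 34 windows (23.5%), against 4.71% of all 27457 promoters and 8.50% of the 11701 promoters of genes on the array. The GABP motif was present in 12 (35.3%, against 9.22% and 15%), the YY1 motif in 10 (29.4%, against 7.30% and 7.84%) and the ERR half-site in 8 (23.5%, against 4.37% and 3.15%). At least 1 of the 4 motifs lay in 25 windows (73.5%), against 22.7% and 29.6%. These matches describe letters in a window and not binding. The 4 windows below belong to the gene of each complex whose signal ranged widest over the 16 arrays, with matches in capitals and the rest in lower case, 5′ to 3′ on the strand of the gene. Sdha lies at chr1:30764303-30764602 (+) and holds 3 NRF1 matches. Uqcrc1 lies at chr8:118467973-118468272 (+) and holds 1 NRF1 match, read on the opposite strand, and 1 YY1 match. Cox10 lies at chr10:49241960-49242259 (-) and holds 1 YY1 match, and Atp5if1 at chr5:150026628-150026927 (-) holds none of the 4 motifs.
Sdha: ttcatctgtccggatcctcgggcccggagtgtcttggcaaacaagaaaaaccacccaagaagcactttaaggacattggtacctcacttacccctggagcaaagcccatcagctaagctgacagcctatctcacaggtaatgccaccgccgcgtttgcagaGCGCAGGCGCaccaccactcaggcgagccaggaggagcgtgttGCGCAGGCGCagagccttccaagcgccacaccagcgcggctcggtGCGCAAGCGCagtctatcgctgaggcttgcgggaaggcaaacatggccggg
Uqcrc1: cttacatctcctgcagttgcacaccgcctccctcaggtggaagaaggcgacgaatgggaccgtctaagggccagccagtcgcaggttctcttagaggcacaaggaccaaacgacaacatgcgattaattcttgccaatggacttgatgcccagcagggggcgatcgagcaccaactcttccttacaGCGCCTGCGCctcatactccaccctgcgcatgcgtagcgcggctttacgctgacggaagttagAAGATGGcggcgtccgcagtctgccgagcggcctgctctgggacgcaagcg
Cox10: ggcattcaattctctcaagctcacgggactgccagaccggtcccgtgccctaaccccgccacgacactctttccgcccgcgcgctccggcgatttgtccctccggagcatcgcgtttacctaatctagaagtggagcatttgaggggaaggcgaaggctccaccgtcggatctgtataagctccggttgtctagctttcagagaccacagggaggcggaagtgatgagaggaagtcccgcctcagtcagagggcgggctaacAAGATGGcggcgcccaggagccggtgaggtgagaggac
Atp5if1: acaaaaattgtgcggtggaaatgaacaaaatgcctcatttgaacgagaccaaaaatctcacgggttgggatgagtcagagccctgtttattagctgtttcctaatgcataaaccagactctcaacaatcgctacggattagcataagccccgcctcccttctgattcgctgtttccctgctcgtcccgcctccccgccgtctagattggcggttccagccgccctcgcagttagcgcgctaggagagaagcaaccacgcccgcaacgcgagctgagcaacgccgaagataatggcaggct

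Signals are log2 values per probe set as deposited, so 1 unit is a doubling. Most of these genes were among the brightest on the array: 26 of 39 had a mean at or above the 99th percentile of probe sets (12.12), and 36 at or above the 95th (10.02). The means ran from 5.99 for Cox11, at the 51.0th percentile, to 13.68 for Atp5f1b, while the highest value on any array lay between 14.47 and 14.56. The slow fibre genes Myh7, Myl2 and Tnnc1 were brighter still, with means of 14.30, 14.10 and 13.97, so the defining markers of slow muscle were present. Signals of different probe sets are not compared as amounts.

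Of the 16 arrays, 3 stand apart. On HCR trained 3 the mean of 8 slow fibre genes stood at -2.35 log2 units relative to its average over all arrays and that of 9 fast fibre genes at 2.68. On HCR sedentary 2 the mean of 10 extracellular matrix genes lay 1.82 above its average and that of 9 macrophage and leukocyte genes 0.99 above. An index of the beta-actin controls, 3' probe set minus middle probe set, was 0.38 on HCR sedentary 2, against 1.06 to 2.37 on the other 15 arrays. The index moves with labelling and RNA as well as with actin. On HCR trained 2 that index was the highest, at 2.37, and a GAPDH index, 3' probe set minus 5' probe set, was 1.67, against 0.48 to 0.77 on the other 15 arrays. HCR trained 2 had the highest signal of all 16 arrays for 12 of the 39 genes, and LCR trained 1 for 9. The share of all genes with their highest signal on these arrays was not computed. Against the other 3 HCR trained arrays, HCR trained 2 was highest for 16 of the 39 (41%), against 29% of all genes. LCR trained 1 was the highest of its group for 18 of the 39 (46.2%), against 18.9% of all genes. Correlations between arrays ran from 0.941 to 0.996, and 0 pairs held identical values.

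HCR sedentary 2 had the lowest signal of all 16 arrays for 34 of the 39 genes (87.2%), against 16.8% of all genes. It lay below each of the other 3 HCR sedentary arrays for 37 of 39 (94.9%), against 36.6% of all genes, and the median gap to their mean was -0.46, against -0.019 over all genes. Every gene of complexes II, III and V was below the other 3. The median gap was -0.56 in complex II, -0.52 in complex III, -0.36 in complex IV and -0.39 in complex V. Cox10, the enzyme that makes heme O for cytochrome oxidase, had the widest gap, with 9.02 on HCR sedentary 2 against 10.05 to 10.28 on the other 3 arrays (-1.12). Uqcrc1, a core subunit of complex III, read 12.17 against 12.77 to 12.88 (-0.65), and Sdhb, the iron-sulfur subunit of complex II, read 12.54 against 13.18 to 13.19 (-0.64). Among the subunits of complex V the narrowest gap was that of Atp5mc3, a gene of the membrane ring, with 13.25 against 13.47 to 13.52 (-0.25). The exceptions were the copper chaperones of complex IV: Cox17 read 10.01, inside the 9.92 to 10.05 of the other 3, and Cox11 read 6.0, above their 5.88 to 5.95. Of 42 complex I genes 41 were also below the other 3 arrays, with a median gap of -0.48. The 8 slow fibre genes had a median gap of -0.21, with 0 at their lowest of 16 arrays, and of 9 fast fibre genes 6 were above the other 3 arrays, with a median gap of 0.48. The higher matrix and macrophage signals and the low control index of the same array stand beside these values, and their part in the result was not tested. In whole muscle, fewer muscle fibres in the sample and less RNA per fibre cannot be told apart.

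**Figure D1:**
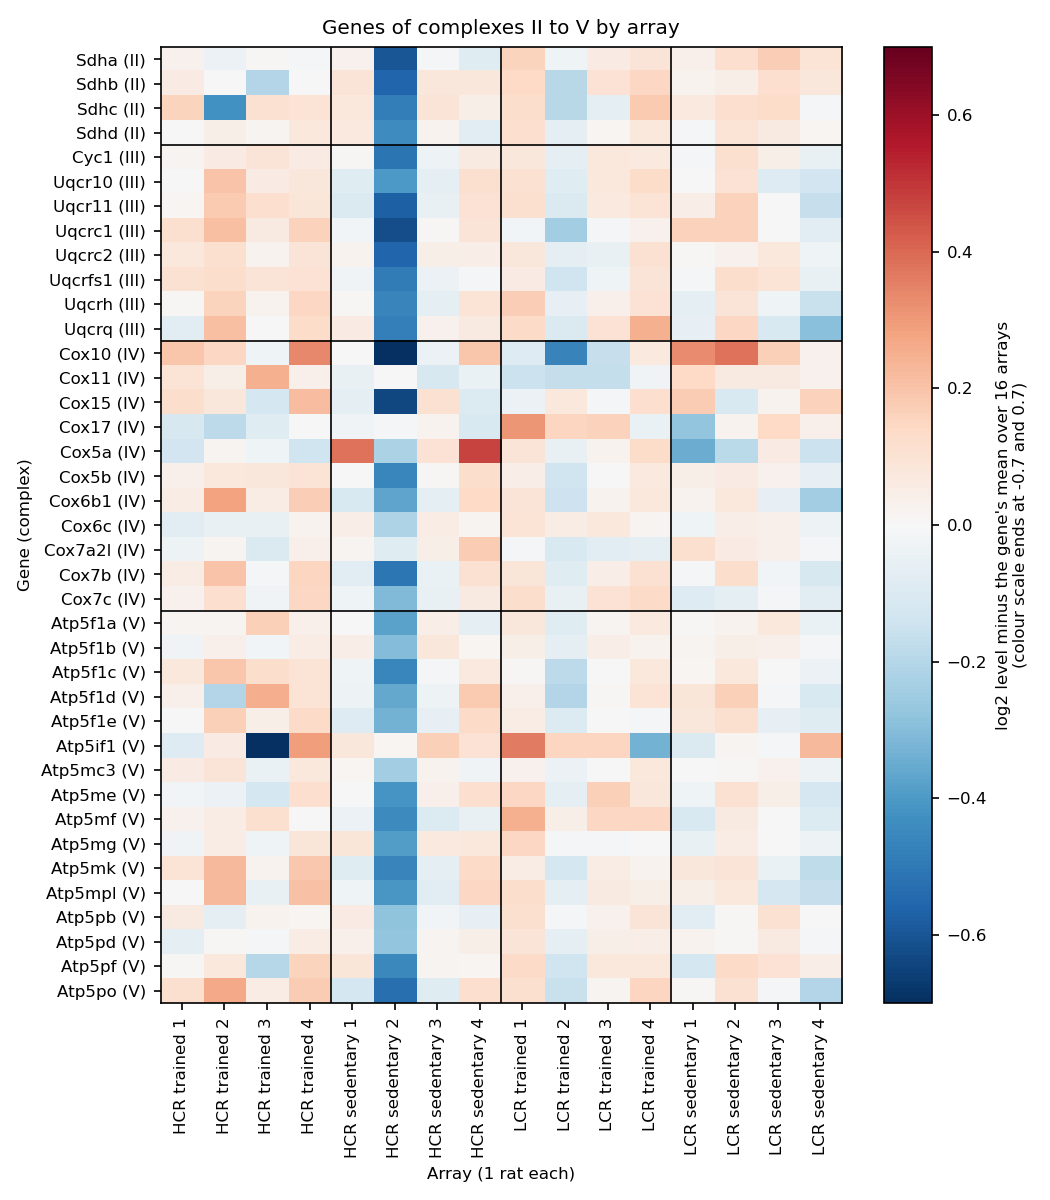
Signal of each of the 39 genes on each of the 16 arrays, as the log2 difference from the gene's mean over all arrays (colour, red above and blue below, scale ending at -0.7 and 0.7), with rows grouped by complex and columns by group. The column of HCR sedentary 2 is blue for nearly all genes, with Cox11, Cox17 and Atp5if1 near white, and Atp5if1 is darkest on HCR trained 3.

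LCR trained 2 showed a smaller gap of the same direction. It lay below the other 3 LCR trained arrays for 33 of 39 genes (84.6%, against 34.5% of all genes), with a median gap of -0.14, and its matrix mean was 1.26 and its macrophage mean 0.47 above their averages. LCR sedentary 4 lay below the other 3 of its group for 27 of 39 genes (69.2%, against 28.6% of all genes), with a median gap of -0.081. On that array the matrix mean was -0.56 and the macrophage mean -0.36 relative to their averages. HCR trained 3, despite its shift in fibre genes, had a mean over the 39 genes of -0.012 relative to their averages. The mean of the 39 genes was 0.045 ± 0.048 in HCR trained, -0.084 ± 0.22 in HCR sedentary, 0.025 ± 0.079 in LCR trained and 0.013 ± 0.052 in LCR sedentary rats (SD, n = 4 each). On single arrays it was -0.40 on HCR sedentary 2 and between -0.087 and 0.099 on the other 15.

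**Figure D2:**
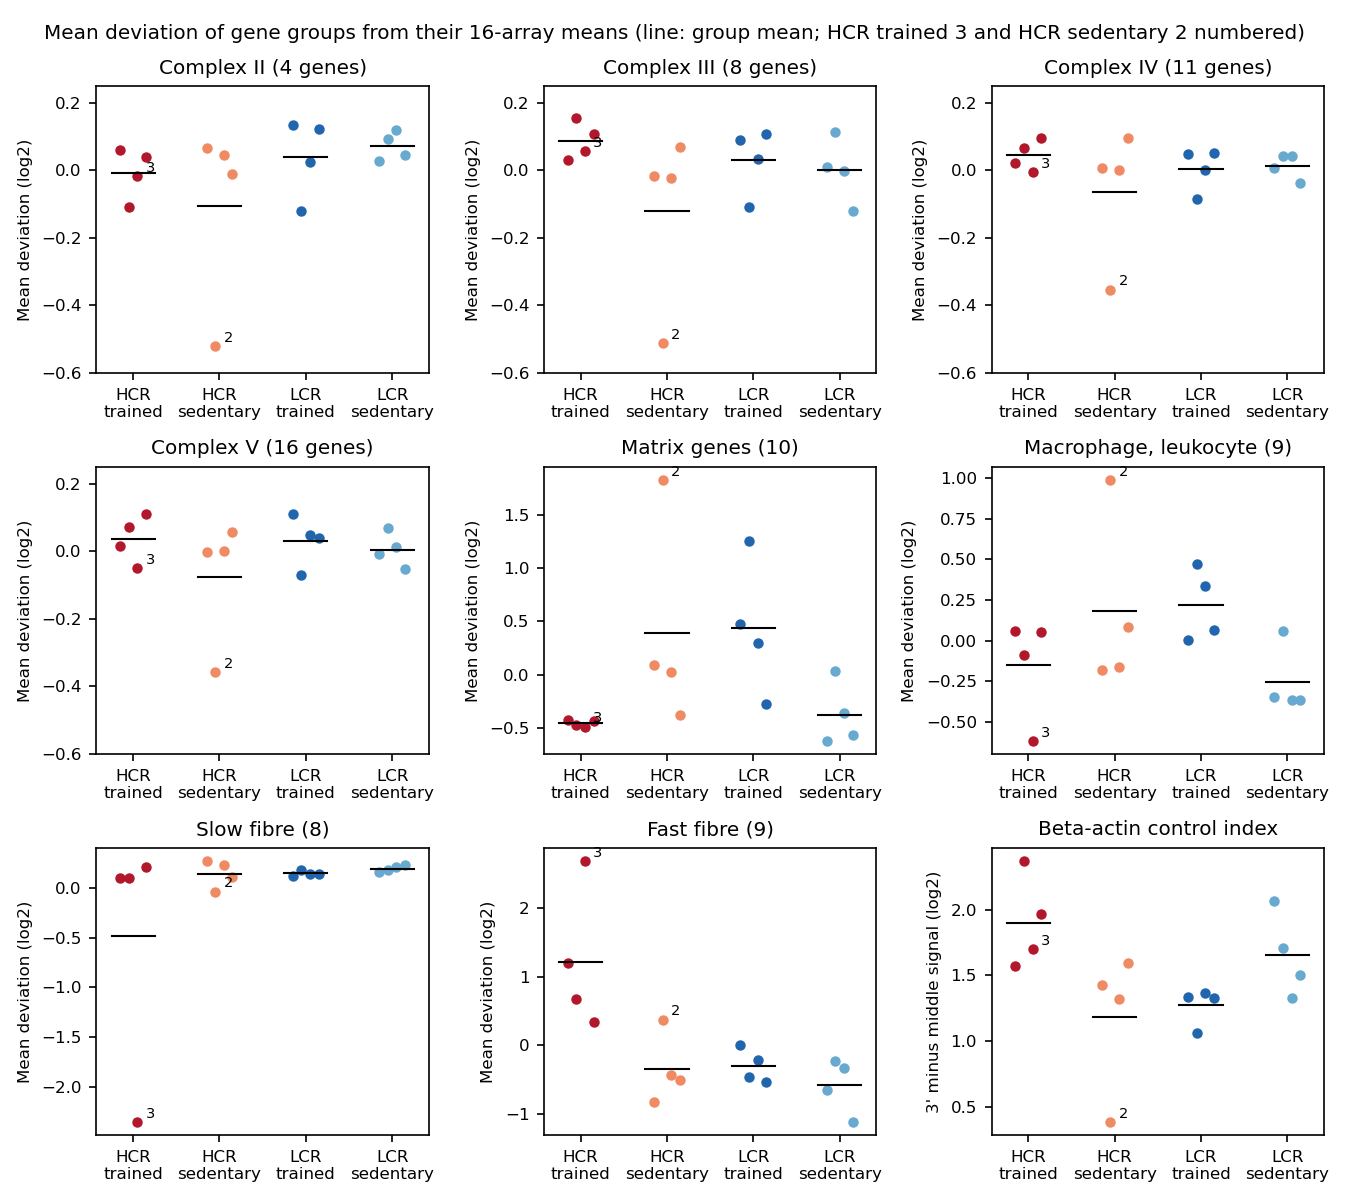
Mean deviation from the 16-array average (log2, vertical axes with different scales) of the genes of each complex and of 4 marker lists, and the beta-actin control index, 1 point per array and a line at the group mean. HCR sedentary 2 is lowest in all 4 complexes and highest for matrix genes (1.82), and HCR trained 3 is lowest for slow fibre genes (-2.35) and highest for fast fibre genes (2.68) with complex means near 0.

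Training in HCR rats gave no called gene among the 39, against 0.187% of all probe sets (58 of 31042). The smallest adjusted p in the limma fit was 0.192. The differences, HCR trained minus HCR sedentary, were above 0 for 34 of 39 genes with a median of 0.16, against 0.021 over all genes. Of all 14217 genes, 7853 were above 0. An unadjusted p under 0.05 was reached by 10 genes, all higher in trained rats, against 13.3% of all genes in that direction. Trained and sedentary values did not overlap for 4 genes, Atp5f1c, Atp5mf, Cox11 and Uqcrfs1, all higher, against 6.13% of all genes. Without HCR sedentary 2 the median difference was 0.038, with 27 of 39 above 0, and no gene of the 39 passed, against 0.00966% of all probe sets. The smallest adjusted p in that limma fit was 0.163, that of Cox5a, which was lower in trained rats (-0.39). When the beta-actin index entered the fit as a covariate, the median was -0.033, with 11 of 39 above 0. That fit included HCR sedentary 2, the array of the lowest index, and was not run without it. Without HCR trained 2 and with no covariate the median was 0.15, and without HCR trained 3 it was 0.16.

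Fibre marker values of the same arrays stand beside these results. The mean of 9 fast fibre genes ran from 0.34 to 2.68 in HCR trained rats, against -0.82 to 0.38 in HCR sedentary rats, relative to its average over all arrays, with 1 sedentary array, HCR sedentary 2, inside the trained range. Only 6 of the 9 genes were higher in trained rats, and the median of their differences was 0.15. One of the 9 passed: Myh4, the myosin heavy chain of the fastest fibres, read 11.08, 8.43, 13.57 and 9.98 in HCR trained rats, against 4.76, 8.03, 4.88 and 5.05 in HCR sedentary rats. All 4 trained values were higher, by 5.09 (limma adjusted p = 0.0475). Of 8 slow fibre genes none passed, and their mean ran from -2.35 to 0.22 in HCR trained rats, against -0.038 to 0.27 in HCR sedentary rats. The part of these markers in the values of the 39 genes was not tested.

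In complex II, Sdha, the flavoprotein subunit that oxidises succinate, read 11.89, 11.82, 11.87 and 11.85 in HCR trained rats, against 11.89, 11.26, 11.84 and 11.77 in HCR sedentary rats. Only the array HCR sedentary 2 lay far from the others, and the groups overlapped. The difference was 0.16 (SE 0.11, limma adjusted p = 0.439), and it was 0.021 without that array. Sdhb differed by 0.039 (SE 0.13), and by -0.12 without that array. Sdhc, a membrane anchor, was lowest among HCR trained rats at 11.51 on HCR trained 2, and the complex median was 0.097, against -0.032 without HCR sedentary 2.

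In complex III all 8 differences were above 0, with and without HCR sedentary 2, with medians of 0.19 and 0.082. Uqcrfs1, the Rieske iron-sulfur subunit, read 12.65, 12.66, 12.63 and 12.64 in HCR trained rats, against 12.51, 12.05, 12.50 and 12.53 in HCR sedentary rats. The groups did not overlap, and the trained values spread by an SD of only 0.013. The difference was 0.25 (SE 0.095, 95% interval 0.044 to 0.45, limma adjusted p = 0.198), and 0.13 (adjusted p = 0.416) without HCR sedentary 2. Uqcrc1 read 12.90, 13.00, 12.86 and 12.96 in HCR trained rats, against 12.77, 12.17, 12.80 and 12.88 in HCR sedentary rats. Its highest sedentary value overlapped the trained ones, and the difference of 0.27 (SE 0.13) was 0.11 without HCR sedentary 2. Cyc1, cytochrome c1, read 12.72 to 12.79 in HCR trained rats, against 12.19, 12.66, 12.70 and 12.76 in HCR sedentary rats, a difference of 0.18 (SE 0.099) that was 0.046 without the array at 12.19.

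In complex IV 7 of 11 differences were above 0, with a median of 0.15, and 0.074 without HCR sedentary 2. Cox5b, a structural subunit, read 13.31 to 13.37 in HCR trained rats, against 12.82, 13.27, 13.28 and 13.40 in HCR sedentary rats, with a difference of 0.15 (SE 0.097) that was 0.029 without that array. Cox10 differed by 0.39 (SE 0.21), the largest difference among the 39 genes, and by 0.11 without it. Cox15, which turns heme O into heme A, read 8.95 to 9.28 in HCR trained rats, against 8.43 on HCR sedentary 2 and 8.97 to 9.17 on the other HCR sedentary arrays, and differed by 0.25 (SE 0.13), against 0.093 without it. Differences below 0 were those of Cox5a, Cox7a2l, Cox17 and Cox6c, from -0.25 to -0.013.

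In complex V 15 of 16 differences were above 0, with a median of 0.10, and 0.026 without HCR sedentary 2. Atp5po, the OSCP subunit that joins the stalk to the catalytic head, read 12.84, 13.00, 12.78 and 12.91 in HCR trained rats, against 12.61, 12.21, 12.65 and 12.85 in HCR sedentary rats. The highest sedentary value lay inside the trained range. The difference was 0.30 (SE 0.12, 95% interval 0.058 to 0.55, limma adjusted p = 0.195), and 0.18 without HCR sedentary 2. Atp5f1b, the catalytic beta subunit, differed by 0.052 (SE 0.072), and Atp5mc3 by 0.098 (SE 0.062), and without that array by -0.035 and 0.037. Among the 6 assembly and regulatory genes (Cox10, Cox11, Cox15, Cox17, Cox7a2l and Atp5if1) the median was 0.050, and among the 33 structural subunits 0.16, and without HCR sedentary 2 these were 0.016 and 0.038.

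**Figure D3:**
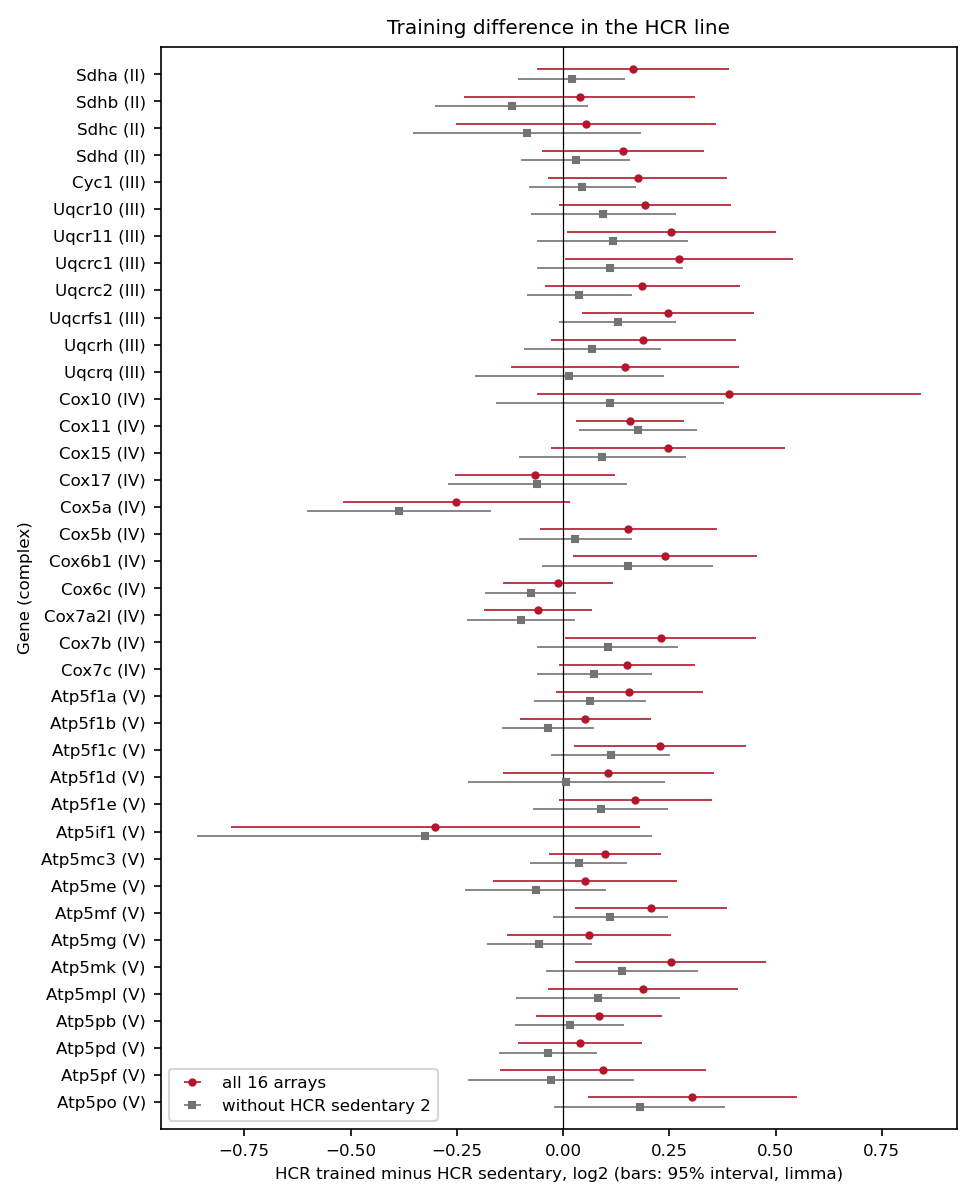
Training difference in HCR rats (trained minus sedentary, log2) for each of the 39 genes, with its 95% interval from the limma fit, over all 16 arrays (red circles) and without HCR sedentary 2 (grey squares). Most red points lie above 0 (34 of 39, median 0.16), and the grey points lie closer to 0 (median 0.038).

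Training in LCR rats gave no called gene among the 39, against 0.00322% of all probe sets (1 of 31042), and the smallest adjusted p was 0.326. The median difference, LCR trained minus LCR sedentary, was 0.012, against -0.028 over all genes. Above 0 were 22 of the 39, against 5876 of all 14217 genes. One gene, Cox11, had an unadjusted p under 0.05 and was lower in trained rats, against 7% of all genes in that direction. It was also the 1 gene whose groups did not overlap, against 6.82% of all genes with the trained group lower. Atp5mf, the f subunit of the membrane part of complex V, read 13.07, 12.86, 12.97 and 12.97 in LCR trained rats, against 12.72, 12.88, 12.82 and 12.73 in LCR sedentary rats. The groups overlapped by 1 rat on each side, and the difference was 0.18 (SE 0.084, limma adjusted p = 0.512). Cox10 read 10.00, 9.62, 9.93 and 10.16 in LCR trained rats, against 10.42, 10.47, 10.25 and 10.12 in LCR sedentary rats, and the groups overlapped by 1 rat on each side. It differed by -0.39 (SE 0.21, adjusted p = 0.572), the largest difference among the 39 in LCR. Cox7c, a small subunit of complex IV, read 12.83, 12.65, 12.81 and 12.84 in LCR trained rats, against 12.62, 12.64, 12.69 and 12.62 in LCR sedentary rats, with 1 trained value, that of LCR trained 2, inside the sedentary range, and a difference of 0.14 (SE 0.075). Among the catalytic and core subunits, Atp5f1b differed by -0.0083, Cyc1 by 0.016, Sdha by -0.037 and Uqcrc1 by -0.12, with SEs of 0.072, 0.099, 0.11 and 0.13.

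Between trained rats, HCR minus LCR, no gene of the 39 passed, against 0.374% of all probe sets (116 of 31042). The smallest adjusted p was 0.0741, that of Cox11, and the next was 0.157, that of Cox17. The median difference was 0.028, against 0.054 over all genes. Above 0 were 22 of the 39, against 9142 of all 14217 genes. An unadjusted p under 0.05 was reached by Cox11, higher in HCR (12.9% of all genes), and Cox17, lower (5.13%). The lines did not overlap for Cox11, Uqcrc1 and Atp5f1c, all higher in HCR, against 8.9% of all genes in that direction. Uqcrc1 read 12.90, 13.00, 12.86 and 12.96 in HCR trained rats, against 12.77, 12.55, 12.79 and 12.82 in LCR trained rats, a difference of 0.20 (SE 0.13, limma adjusted p = 0.400). Atp5f1c, the gamma subunit that forms the rotating shaft, read 13.48 to 13.61 in HCR trained rats, against 13.23 to 13.48 in LCR trained rats, and the nearest values of the lines were equal after rounding. All 4 genes of complex II had differences below 0, with a median of -0.050, and 7 of 8 genes of complex III had differences above 0, with a median of 0.043. The beta-actin index did not overlap between these groups, at 1.57 to 2.37 in HCR trained and 1.06 to 1.36 in LCR trained rats. When that index entered the fit as a covariate, the median of the 39 was -0.14, with 1 of 39 above 0, and Uqcrc1 was at -0.084 and Atp5f1c at -0.042. That fit included HCR sedentary 2, which had the lowest index and the lowest signal of most of the 39 genes. How far these values depend on that array was not tested. With the GAPDH index in place of the beta-actin index the median was -0.0093, with 18 of 39 above 0, and without HCR trained 2 it was 0.013. The means of the fast fibre, matrix, blood and assembly factor lists also did not overlap between these groups. The mean of 3 blood genes ran from -0.22 to -0.042 in HCR trained rats, against -0.015 to 0.49 in LCR trained rats. That of 28 assembly factors of complexes II to V ran from 0.050 to 0.19, against -0.18 to 0.014. The mean of the 9 fast fibre genes ran from 0.34 to 2.68 in HCR trained rats, against -0.53 to 0.0060 in LCR trained rats, and Myh4 was higher by 5.48 (limma adjusted p = 0.0281). Only 5 of the 9 genes were higher in HCR, and the median of their differences was 0.097. The mean of the 10 matrix genes ran from -0.48 to -0.43 in HCR trained rats, against -0.27 to 1.26 in LCR trained rats, and 1 of them, Dcn, the proteoglycan decorin, passed at -0.66 (adjusted p = 0.0391). The part of these markers in the line values was not tested.

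Between sedentary rats no gene of the 39 passed, against 0.00966% of all probe sets (3 of 31042), and the smallest adjusted p was 0.565. The differences, HCR minus LCR, were below 0 for 37 of 39 genes with a median of -0.10, against -0.0030 over all genes. Of all 14217 genes, 7256 were below 0. An unadjusted p under 0.05 was reached by Cox5a, higher in HCR (3.91% of all genes), and by Sdha, Cox10 and Cox11, lower (5.99%). Without HCR sedentary 2 the median was 0.0041, with 20 of 39 above 0, and with the beta-actin index as covariate it was 0.021, with 26 of 39 above 0. The median was -0.15 in complex II, -0.14 in complex III, -0.051 in complex IV and -0.090 in complex V, and without that array -0.021, 0.0021, 0.023 and 0.0046. HCR values lay below all LCR values for Sdha and Cox11, against 3.28% of all genes. Sdha read 11.89, 11.26, 11.84 and 11.77 in HCR sedentary rats, against 11.90, 11.98, 12.03 and 11.96 in LCR sedentary rats. The highest HCR value was just under the lowest LCR value, and the difference of -0.27 (SE 0.11, limma adjusted p = 0.581) was -0.13 without HCR sedentary 2. Atp5f1a, the alpha subunit of the catalytic head, read 13.38, 13.00, 13.42 and 13.31 in HCR sedentary rats, against 13.38, 13.40, 13.45 and 13.33 in LCR sedentary rats, and differed by -0.11 (SE 0.081), against -0.019 without that array.

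The training difference in HCR minus that in LCR, the interaction, gave no called gene among the 39 and none among all 31042 probe sets (0%) in limma, and the smallest adjusted p among the 39 was 0.103. An unadjusted p under 0.05 was reached by 5 of the 39, 4 above 0 and 1 below, against 13.1% and 5.96% of all genes. The median was 0.12, against 0.058 over all genes, and 0.024 without HCR sedentary 2. With the beta-actin index as covariate it was -0.16, with 3 of 39 above 0. Cox10 had the largest interaction, 0.78 (SE 0.30, 95% interval 0.14 to 1.42, limma adjusted p = 0.195), made of a difference of 0.39 in HCR and of -0.39 in LCR, and 0.50 without HCR sedentary 2. That of Uqcrc1 was 0.40 (SE 0.18, adjusted p = 0.255), and 0.23 without it, but -0.095 with that covariate.

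Over both lines, trained minus sedentary, no gene of the 39 passed, against 0.00644% of all probe sets (2 of 31042). The median was 0.069, against -0.0046 over all genes, and 0.024 without HCR sedentary 2. An unadjusted p under 0.05 was reached by 3 genes, Atp5mf, Cox7c and Atp5po, all higher, against 6.82% of all genes. Atp5mf had the smallest p, with a difference of 0.19 (SE 0.059, 95% interval 0.067 to 0.32, limma adjusted p = 0.283), and 0.15 without that array. Its training differences were 0.21 in HCR, or 0.11 without that array, and 0.18 in LCR. Cox7c differed by 0.14 (SE 0.053, adjusted p = 0.398). Over both training states, HCR minus LCR, no gene of the 39 passed, against 0.087% of all probe sets (27 of 31042). The median was -0.034, against 0.025 over all genes, and 0.024 without HCR sedentary 2. Sdha alone had an unadjusted p under 0.05, against 3.68% of all genes in its direction, at -0.17 (SE 0.075, limma adjusted p = 0.461). Without HCR sedentary 2 Sdha was at -0.10, and Cox5a, at 0.18, then also reached an unadjusted p under 0.05.

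**Figure D4:**
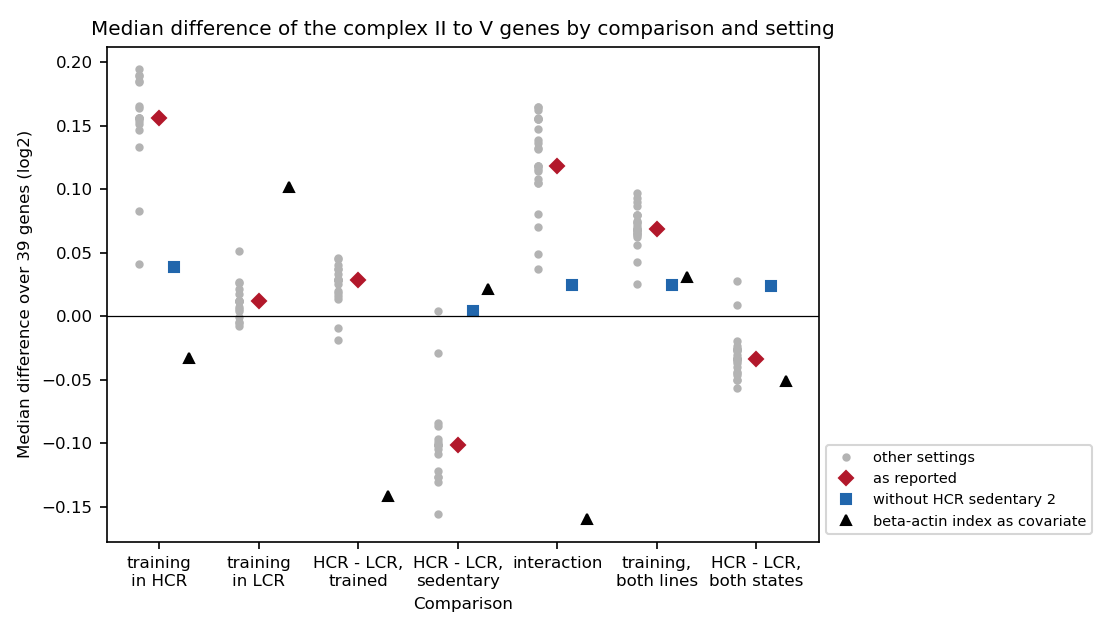
Median log2 difference over the 39 genes in each of the 7 comparisons, as reported (red diamonds), without HCR sedentary 2 (blue squares), with the beta-actin index as covariate (black triangles) and under the other settings and single arrays left out (grey points). The reported medians of 0.16 for training in HCR and -0.10 between sedentary rats move to 0.038 and 0.0041 without that 1 array, and with the covariate the interaction moves to -0.16.

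Some genes did not follow the rest across arrays. The Pearson correlation over 16 arrays of each gene with the mean of the other 38 had a median of 0.867, and 0.653 without HCR sedentary 2, given here as a description. It was over 0.8 for 28 genes with all arrays and for 4 without that array. The lowest values were -0.024 for Cox11, -0.021 for Cox17, -0.013 for Atp5if1, 0.28 for Cox5a and 0.41 for Cox7a2l, and all but Cox5a of these are assembly or regulatory genes. The highest were 0.964 for Cox5b and 0.963 for Cyc1.

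Cox11, which helps to insert copper into complex IV, read 6.09, 6.03, 6.24 and 6.03 in HCR trained rats, against 5.94, 6.0, 5.88 and 5.95 in HCR sedentary rats. In LCR trained rats it read 5.84, 5.82, 5.82 and 5.97, against 6.13, 6.05, 6.06 and 6.02 in LCR sedentary rats. Thus all trained values were above the sedentary ones in HCR and all below them in LCR, by 0.16 (SE 0.059) and -0.20 (SE 0.059). The interaction was 0.36 (SE 0.084, limma adjusted p = 0.103) and the difference between trained lines 0.23 (SE 0.059, adjusted p = 0.0741). Neither passed. With arrays weighted by their quality in the limma fit, Cox11 passed in the LCR training comparison, between trained lines and in the interaction, with adjusted p of 0.0472, 0.0152 and 0.0403. The same setting called 321, 3525 and 233 probe sets. The probe set used had a mean of 5.99, at the 51.0th percentile, near the array medians of 5.91 to 5.98. Without detection calls, whether this signal lies above background is not known. The other 2 probe sets of Cox11 were dimmer still, at means of 5.34 and 5.04, and correlated with the first at -0.48 and 0.24 over 16 arrays. Their interactions were -0.066 and -0.051.

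Cox17, which carries copper to complex IV assembly, read 9.91, 9.84, 9.94 and 10.02 in HCR trained rats, against 10.34, 10.18, 10.19 and 9.98 in LCR trained rats. One value of each line lay in the range of the other, and the difference was -0.24 (SE 0.089, limma adjusted p = 0.157). Cox5a, a structural subunit, read 8.02, 7.74 and 8.11 on 3 HCR sedentary arrays and 7.41 on HCR sedentary 2, against 7.29, 7.45, 7.69 and 7.49 in LCR sedentary rats. The line difference in sedentary rats was 0.34 (SE 0.125, adjusted p = 0.565), and 0.47 without HCR sedentary 2. In HCR trained rats it read 7.50 to 7.66, and the interaction was -0.46 (SE 0.18, adjusted p = 0.198), and -0.59 without that array. The probe set had a mean of 7.64, at the 77.6th percentile.

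Atp5if1, the factor that inhibits ATP synthase when the proton gradient is lost, read 9.93, 10.08, 8.93 and 10.32 in HCR trained rats, against 10.10, 10.04, 10.19 and 10.12 in HCR sedentary rats. The low value is that of HCR trained 3, the array with the most fast fibre and the least slow fibre signal, and the part of fibre composition in it was not tested. In LCR trained rats Atp5if1 read 10.39, 10.17, 10.17 and 9.69, against 9.92, 10.04, 10.01 and 10.25 in LCR sedentary rats. Between trained lines it differed by -0.29 (SE 0.23), and by 0.0017 without HCR trained 3. Cox7a2l, a relative of Cox7a subunits found in respiratory supercomplexes, varied least across arrays, with a range of 0.28, and read 11.05 to 11.19 in HCR trained, 11.07 to 11.33 in HCR sedentary, 11.04 to 11.14 in LCR trained and 11.14 to 11.27 in LCR sedentary rats. Its training differences were -0.058 in HCR, or -0.099 without HCR sedentary 2, and -0.11 in LCR, and -0.086 over both lines (SE 0.042, limma adjusted p = 0.545).

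**Figure D5:**
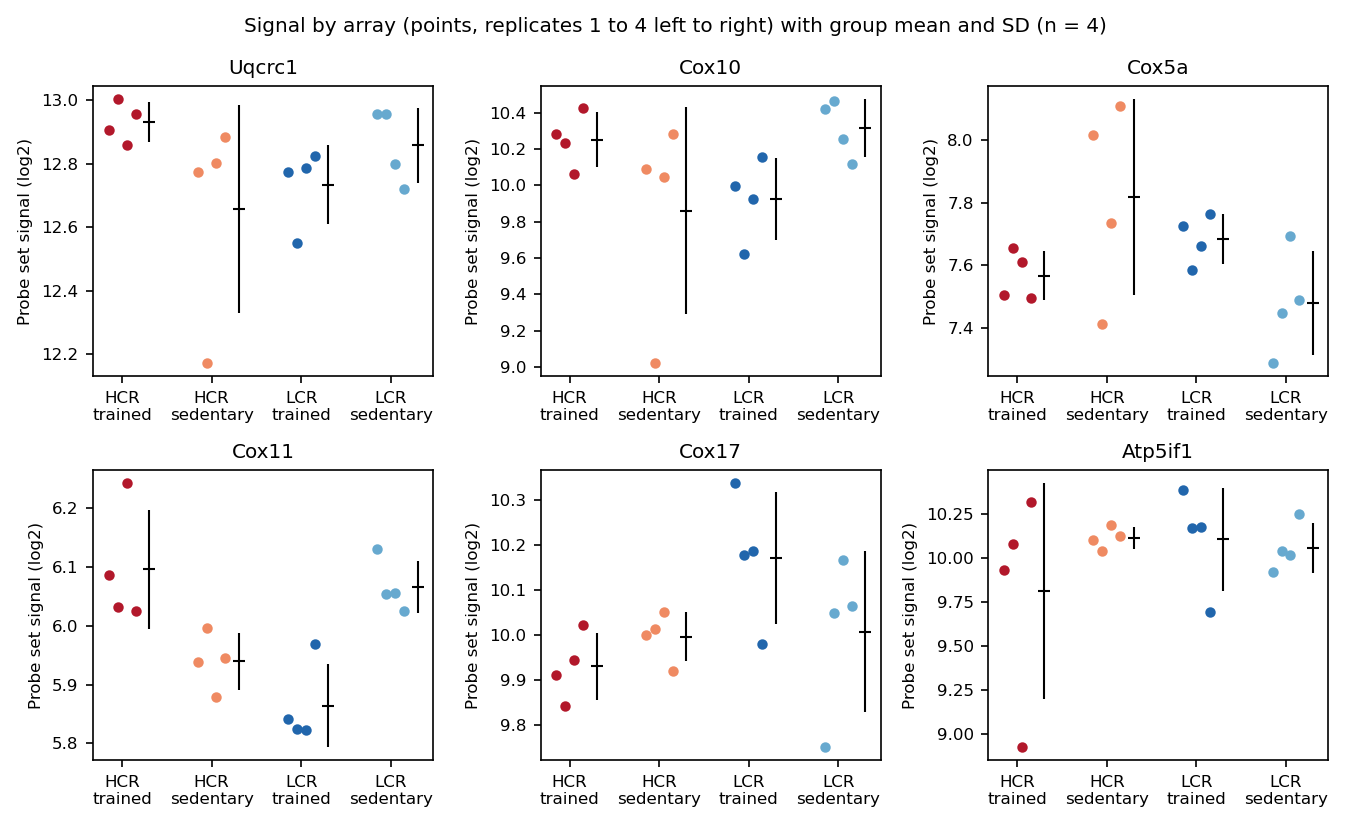
Log2 signal of 6 genes on each array (points, replicates 1 to 4 from left to right in each group) with the group mean and SD (n = 4), each panel on its own scale. Uqcrc1 and Cox10 are lowest on HCR sedentary 2 (12.17 and 9.02), Atp5if1 is lowest on HCR trained 3 (8.93), and Cox11 lies above its sedentary values in HCR trained rats and below them in LCR trained rats.

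The median SD within groups was 0.147 log2 units over the 39 genes, against 0.152 over all genes, and without HCR sedentary 2 it was 0.0906, against 0.142. Between genes it ran from 0.0699 to 0.347, the highest being that of Atp5if1. Of 7 genes with more than 1 probe set, the second probe set of Sdhd correlated with the first at 0.699 over 16 arrays. The dimmer probe sets of Uqcrc2, Atp5po and Atp5me did so at 0.254, 0.286 and -0.060, those of Cox15 at 0.524 and -0.019, and those of Atp5if1 at 0.396 and -0.026. Results for these genes therefore rest on the brightest probe set alone. In HCR training the dimmer probe sets of Cox15 (-0.092 and -0.51), Uqcrc2 (-0.21) and Cox11 (-0.0016 and -0.059) ran opposite to the brightest. Those of Sdhd, Atp5po, Atp5me and Atp5if1 had the same direction as the brightest.

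Genes whose pattern over 16 arrays was most like the mean of the 39 were Idh3b, a subunit of the citric acid cycle enzyme isocitrate dehydrogenase (r = 0.974), Cox8b, a muscle subunit of complex IV (0.971), Tmem126a (0.952), Acaa2, the last enzyme of mitochondrial fatty acid oxidation (0.952), and Ndufa9, a complex I subunit (0.949). Without HCR sedentary 2 the same genes gave 0.867, 0.869, 0.917, 0.740 and 0.777. These values describe likeness across arrays that share the same outlying sample.

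The rest of the respiratory chain was read from lists. Of 42 complex I genes, none passed in any comparison, where 0% to 0.374% of all probe sets did. Their median training difference in HCR was 0.22, and 0.11 without HCR sedentary 2, with 21 at an unadjusted p under 0.05, all higher, against 13.3% of all genes in that direction. Ndufa12 and Ndufv3, both subunits, had the smallest p, at 0.38 and 0.56 (limma adjusted p = 0.126 and 0.145). Without HCR sedentary 2 they were at 0.26 and 0.40 (limma adjusted p = 0.277 and 0.334). In LCR the median was 0.044. Of 9 other subunits of complex IV, 1 passed: Cox7a1, the muscle isoform of a dimer-interface subunit, was higher in trained rats by 2.00 in HCR and 1.67 in LCR (limma adjusted p = 0.00526 and 0.0465), and the median of the 9 was 0.055 in HCR and 0.047 in LCR. The adjusted p for LCR was 0.0589 without HCR sedentary 2.

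Of 28 measured assembly factors of complexes II to V that the rule did not take, none passed. Their median training difference was 0.19 in HCR, with 24 of 28 above 0, and 0.13 without HCR sedentary 2. In LCR it was -0.094, with 6 of 28 above 0. The median interaction was 0.29, with 13 of 28 at an unadjusted p under 0.05, all above 0, against 13.1% of all genes. Without HCR sedentary 2 it was 0.23. Sdhaf3, an assembly factor of complex II, differed by 0.70 in HCR training (limma adjusted p = 0.0716), and Cox19, a copper-related factor of complex IV, by 0.50 (adjusted p = 0.0785). Without that array Sdhaf3 and Cox19 differed by 0.59 and 0.53 (limma adjusted p = 0.176 and 0.159). Of 17 regulators of mitochondrial biogenesis none passed. Their median was 0.12 in HCR training, and 0.0019 without HCR sedentary 2, and -0.070 in LCR. Tfb2m, a transcription factor of the mitochondrial genome, was at 0.41 in HCR (adjusted p = 0.195), or 0.22 without HCR sedentary 2, and Gabpa, the DNA-binding subunit of GABP, at 0.38 in LCR (adjusted p = 0.369).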

How the data were processed

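Total RNA from 20 mg of soleus of each of 16 rats was hybridised to Affymetrix rat arrays, with a separate array for every rat, per the labels. The values are the log2 signals per probe set as deposited by the authors. The submitters' processing notes name RMA and limma, and which versions were used is not given in the sources used here. RMA takes out any shift shared by all probe sets, so each difference is measured against the bulk of the signals. The deposited log2 values have no detection calls, so no floor was set. Precision is limited by the number of arrays. Scan dates were not used here.

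After 57 control probe sets were left out, 31042 were fitted (limma 3.58.1, R 4.3.3) by 4 group means with 12 residual degrees of freedom. P-values were adjusted by Benjamini-Hochberg over all probe sets within each of 7 comparisons, at a threshold of 0.05. The comparisons share groups of arrays and are not independent. Names come from the platform annotation: 20826 probe sets had 1 symbol, 436 several and 9780 none. Of the 39 genes, 38 matched the RefSeq table of GRCr8 by gene identifier and 0 symbols changed. No filter on low signals was used, and all 39 genes lay above the 40th percentile of probe sets. The labels describe separate rats.

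The genes, the other lists and the rule for naming genes were chosen with earlier results of these data known. Named were the 3 genes of smallest p in each direction of each comparison, the gene of widest range in each complex, and a set of key subunits. Of the other lists, called genes and up to 2 of smallest p per comparison were named. The fit was tested on simulated data. The labels give replicate numbers and name no pairing of the rats. Deviations of 24 same-numbered array pairs correlated between -0.48 and 0.57, with a median of 0.032, against 0.015 for other pairs. Among the same-numbered pairs 8 had r over 0.1. HCR sedentary 2, LCR trained 2 and HCR trained 2, all described above, share a number, and a shared batch was not tested. Alternatives were array weights, quantile normalization, median centring, variance trend with robust moderation, control indices as covariates, leaving out dim probe sets, the mean of all probe sets of a gene, only the compared arrays, a replicate block, and arrays left out.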

Additional observations from a re-analysis of the deposited data

Results flagged for a closer look

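Within each group of 4 arrays, the highest or lowest value was singled out where its gap to the nearest other value exceeded, as a share of the group's range, Dixon's critical value for 4 samples, which chance gives for about 1 in 20 groups (5%). Of 156 gene-by-group checks 20 were singled out, 13 of them in HCR sedentary rats, all low on HCR sedentary 2. The genes move together across arrays, so the checks are not independent, and the share singled out over all genes was not computed. By the looser rule of lying below the other 3 HCR sedentary arrays, HCR sedentary 2 was low for 36.6% of all genes. All 20 follow.

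On HCR sedentary 2, Sdhb read 12.54 against 13.18 to 13.19 on the other HCR sedentary arrays, Uqcrfs1 12.05 against 12.50 to 12.53, and Uqcrc1 12.17 against 12.77 to 12.88. Cyc1 read 12.19 against 12.66 to 12.76, Atp5mf 12.38 against 12.73 to 12.78, Atp5f1b 13.38 against 13.70 to 13.76, and Cox6c, a subunit of complex IV, 13.13 against 13.37 to 13.40. Sdhc read 11.45 against 11.97 to 12.02, Uqcrc2 12.07 against 12.65 to 12.67, and Uqcrq 12.31 against 12.82 to 12.85. Atp5mg read 12.50 against 12.96 to 12.97, Atp5pd 12.89 against 13.18 to 13.20, and Atp5pf 11.52 against 11.99 to 12.06. The means of the gene groups on this array were -0.52 for complex II, -0.51 for complex III, -0.36 for complex V and -0.40 for all 39 genes, while the other 3 arrays lay between -0.022 and 0.071 in each.

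On LCR trained 2, Sdhb read 12.91 against 13.20 to 13.25 on the other LCR trained arrays, Cyc1 12.63 against 12.77 to 12.78, and Cox7c 12.65 against 12.81 to 12.84. Cox11 read 5.97 on LCR trained 4, against 5.82 to 5.84, and Atp5mg 13.03 on LCR trained 1, against 12.88 to 12.89. Sdhc read 11.51 on HCR trained 2, against 12.03 to 12.09. Atp5f1a read 13.54 on HCR trained 3, where the others of its group read 13.39 to 13.41.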

How the results depend on the processing

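No gene passed in any of the 7 comparisons, and leaving out any single array left every count at 0, as did each other setting except array weights, which called 1 gene, Cox11, in LCR training, between trained lines and in the interaction. With a replicate block, although the labels name no pairing, all 7 counts were 0. Each replicate number occurs once in every group, so that block cannot move the differences or their medians. Medians ranged from 0.038 to 0.19 for training in HCR, from -0.0050 to 0.052 in LCR, from -0.019 to 0.046 between trained lines, from -0.16 to 0.0041 between sedentary lines, from 0.024 to 0.16 for the interaction, from 0.024 to 0.097 for training over both lines and from -0.057 to 0.024 for line over both states when single arrays were left out. When the beta-actin index entered as a covariate, the medians were -0.033 for training in HCR, with 11 of 39 above 0, 0.10 in LCR, -0.14 between trained lines, 0.021 between sedentary lines, -0.16 for the interaction, 0.031 for training over both lines and -0.051 for line over both states, and the cause was not tested. HCR sedentary 2 held the lowest value of that index and the lowest signal of most of the 39 genes. The covariate was not fitted without that array. The covariate setting also turned Uqcrc1 between trained lines (-0.084) and in the interaction (-0.095), and Atp5f1c between trained lines (-0.042). With single arrays left out, Atp5if1 ranged from -0.46 to 0.0017 between trained lines and from -0.21 to 0.022 for training over both lines, with the upper end without HCR trained 3 in each. Without both HCR trained 3 and HCR sedentary 2 it was 0.0017 and 0.0097, and with array weights the second was 0.017. For line over both states Cox6b1 ranged from -0.00085, without HCR sedentary 4, to 0.084, and Cox11 turned to -0.0053 with the mean of its probe sets. Of 444 values of named genes under other settings, 434 kept their direction and side of the threshold, as did 477 of 480 with 1 array left out. The limits are 4 rats per group, 1 low array in the HCR sedentary group, a control index that differs between the trained groups, probe sets near the top of the signal range, and 1 probe set for most genes.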
